A study of Homo sapiens with 519 samples.

Results

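Proflavine, quinacrine and amsacrine are acridines, 3 of the 90 compounds in the first experiment of a drug study in SK-N-BE(2), a long-established line of human neuroblastoma cells with MYCN amplification. Members were found by the compound name and the dose in the labels, which read PROFLAVINE HEMISULFATE at 5, QUINACRINE HYDROCHLORIDE at 10 and AMSACRINE at 3. Each compound has 2 wells, 1 on each of 2 duplicate plates, so the acridines hold 6 of the 519 libraries of the series, all in that experiment. The 90 compounds had been picked for stronger activity in MYCN-amplified lines, and RNA was read by PLATE-seq, which barcodes each well of a plate and sequences the 3′ ends of polyadenylated RNA as a pool.

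All groups used here share the cell line, a 24 h exposure and the DMSO vehicle. The control group is 8 DMSO wells, 4 on each plate. The labelled doses carry no unit, and by the study's design text every compound was given at its own mildly inhibitory concentration. Because 5, 10 and 3 differ, the values of the 3 acridines are given side by side and were not compared with each other. Matched labelled doses allowed 3 pairs to be compared directly, which are amsacrine with teniposide at 3, amsacrine with doxorubicin at 3, and quinacrine with prochlorperazine (PROCHLORPERAZINE EDISYLATE) at 10, with 2 wells a compound. Nothing in the labels says that the wells came from separate cultures, so p-values measure a spread between wells, which may be technical. That spread was estimated over the wells of all groups of the experiment and not from the compared wells alone. The results hold for 1 cell line at 1 time.

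An acridine is a flat ring system of 3 fused rings that can slide between the base pairs of DNA. Proflavine carries an amino group on each outer ring and no side chain, and it is an antiseptic dye that intercalates into nuclear and mitochondrial DNA. Quinacrine, an antimalarial, has a chlorine, a methoxy group and a long basic side chain on the ring, and such cationic amphiphilic drugs collect in lysosomes. Amsacrine bears an anilino group with a methanesulfonamide and is a topoisomerase II poison: it holds the enzyme on cut DNA, which leaves double-strand breaks. Teniposide poisons the same enzyme without intercalating, doxorubicin is an anthracycline that does both, and prochlorperazine is a phenothiazine with a basic side chain but no acridine ring. Breaks in DNA classically raise CDKN1A, and they slow entry into mitosis, which CCNB1 (cyclin B1) marks. The mitochondrial genome is a small circle whose long transcripts are cut at tRNA genes into mRNAs. These carry 13 protein-coding genes, called mRNA genes here, of which MT-ND2 encodes a subunit of complex I.

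Total counts were 1194382 and 849053 in the proflavine wells (plate 1, then plate 2, in this order throughout), 2668600 and 1237042 in the quinacrine wells, and 2474332 and 1546197 in the amsacrine wells. The DMSO wells held 1683983 to 2607422 counts with a median of 2140071, so both proflavine wells were below every DMSO well, and 9 of the 90 compounds had a lower mean total than proflavine. Spike-in RNA was found at 289 to 2742 counts in 96 wells of the experiment and at no more than 105 in the other 96. Both amsacrine, both doxorubicin and both prochlorperazine wells held it, against 2 of the 8 DMSO wells and none of the proflavine, quinacrine and teniposide wells. The 8 markers of the line (HAND2, GATA3, DBH, TH, MYCN, ISL1 and CHGA among them) all had counts in DMSO, with a summed level of 883 to 1208 CPM, where CPM are counts scaled to the library's size by TMM. Their sum was 481 to 671 CPM with proflavine, where DBH was at 0, 1025 to 1306 with quinacrine and 718 to 1023 with amsacrine. Of 22 markers of other cell types, 11 were at 0 in all DMSO wells, among them PTPRC, CD3E, ALB and GFAP. The rest of that list summed to 469 to 618 CPM in DMSO and 129 to 159 CPM with proflavine, nearly all of it from COL1A1.

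Of 13438 genes tested with edgeR's quasi-likelihood test, proflavine raised 1359 (10.1%) and lowered 1239 (9.22%), 19.3% in either direction, at an adjusted p under 0.05. Amsacrine raised 159 (1.18%) and lowered 109 (0.811%), 1.99% in either direction. Quinacrine raised 2 genes (0.0149%) and lowered none, a share of 0, so 0.0149% in either direction. An unadjusted p under 0.05 was reached by 4169 genes with proflavine, 1918 with amsacrine and 590 with quinacrine, and the DESeq2 test with the plate called 2265, 280 and 2. The plate was a block in these fits, and without the block proflavine had 1574 calls, amsacrine 41 and quinacrine 2. With the spike-in wells as a second block, a setting chosen after the data were seen, the calls were 2491, 123 and 3. Scaling by DESeq2 size factors moved the median of all genes up by 0.23 (log2) with proflavine and 0.10 with amsacrine, and the share of calls that were higher went from 52.3% to 70.7% and from 59.3% to 77.5%, so changes below are read against those medians. The 3 acridine comparisons share the 8 DMSO wells.

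The markers MT-ND2, CDKN1A and CCNB1 gave each acridine a different set of calls against DMSO. Proflavine lowered MT-ND2 and CCNB1, amsacrine raised CDKN1A and lowered CCNB1, and with quinacrine no marker passed. MT-ND2 stood at 14257 and 12906 CPM with proflavine, 40181 and 41917 CPM with quinacrine and 40256 and 39979 CPM with amsacrine, against 35973 to 57887 CPM (median 38977) in DMSO. CDKN1A, the p21 inhibitor of cyclin-dependent kinases, was at 12.8 and 22.2 CPM with proflavine, 8.74 and 0 with quinacrine and 30.1 and 43.9 with amsacrine, against 5.2 to 11.9 CPM (median 7.52) in DMSO. CCNB1 was at 72.9 and 38.1 CPM with proflavine, 130 and 54.9 with quinacrine and 79.9 and 55.6 with amsacrine. Its DMSO wells read 130 to 181 CPM on plate 1 and 81.4 to 114 on plate 2, so each acridine well lay below all 4 DMSO wells of its own plate, quinacrine on plate 1 by less than the rounding.

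**Figure D1:**
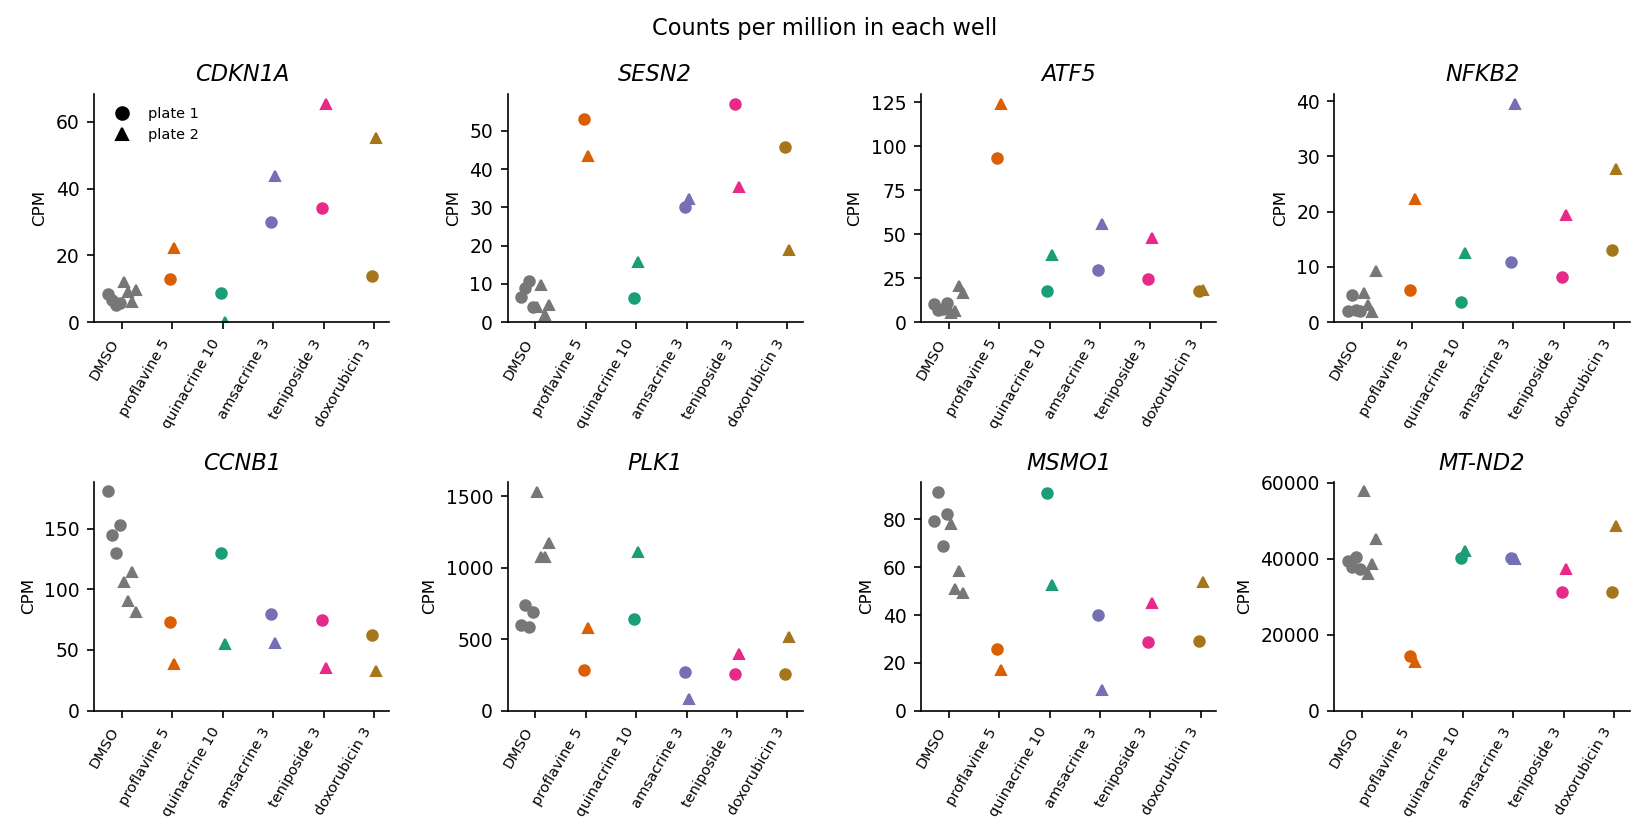
CPM (scaled counts, y axis, from 0) of 8 genes in each well of DMSO, the 3 acridines at their labelled doses, teniposide and doxorubicin; circles are plate 1 and triangles plate 2. MT-ND2 is low in the 2 proflavine wells alone, at 12906 to 14257 CPM, and CDKN1A is at 30.1 and 43.9 CPM in the amsacrine wells, above the highest DMSO well at 11.9.

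Proflavine lowered most mitochondrial mRNAs. The 13 mRNA genes took 9.65% and 8.81% of all counts in the proflavine wells (95% Clopper-Pearson intervals of 9.6% to 9.7% and 8.75% to 8.87%, which cover counting error only), against 21.1% ± 1.72 (SD, n = 8) and a range of 19.2% to 24.2% in DMSO. The share was 21.6% and 20.1% with quinacrine and 22.6% and 19.8% with amsacrine, inside the DMSO range. An exact two-sided permutation test of 2 wells against 8 gave p = 0.0444 for proflavine, the smallest value that 45 splits allow, and 0.178 after adjustment over 12 such tests. These splits were drawn without regard to the plate. Among the 90 compounds a single compound had a lower mean share, homidium (ethidium, a phenanthridine that also intercalates), at 3.45% and 3.97%. Homidium was looked up after this rank was seen, and its labelled dose is 7.5, so its values stand beside those of proflavine without a comparison. From bulk RNA, fewer cells of a kind and less RNA per cell cannot be told apart.

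By gene, 10 of the 13 mitochondrial mRNA genes fell with proflavine, with a median log2 change of -1.60 against -0.04 for all genes. MT-ND2 fell by 1.61 (SE 0.19, adjusted p = 8.06e-12), a level 3.04-fold lower. In all 10 genes that fell, each proflavine well lay below the 4 DMSO wells of its plate. These genes were picked by their call and the share of all genes with such a gap is not given, so the gap is not separate support. MT-ND4, another complex I subunit, read 11896 and 14562 CPM against 38996 to 78628 in DMSO (log2 change -2.01, SE 0.19), and MT-CYB, the complex III cytochrome b, read 2967 and 2202 CPM against 6890 to 13791 (-2.05, SE 0.20). The ATP synthase genes MT-ATP6 and MT-ATP8 changed by -1.60 and -2.70, and the cytochrome oxidase genes MT-CO2 and MT-CO3 by -1.79 and -1.32. MT-ND1, MT-ND3 and MT-ND5 changed by -1.13, -2.10 and -1.16. Not all mRNA genes followed. MT-CO1, the catalytic oxidase subunit, read 3597 and 3721 CPM inside its DMSO range of 2654 to 4883 (0.04, SE 0.19). MT-ND4L (0.05) and MT-ND6 (0.11), the single mRNA gene on the other strand, did not pass. MT-ATP8 overlaps MT-ATP6 and MT-ND4L overlaps MT-ND4, and use of strand in the counting is not given in the sources used here, so reads of such neighbours may not be split cleanly. The 10 calls held with DESeq2 size factors and with the spike-in wells as a second block, and 9 held without the plate block.

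Several mitochondrial tRNAs and the small rRNA moved the other way. tRNA genes took 0.254% and 0.138% of counts with proflavine against 0.0286% to 0.0863% in DMSO, and 87 of the 90 compounds had a lower mean. Of 22 tRNA genes counted, 15 had enough counts to be tested; 7 rose and 2 fell with proflavine, and none passed with quinacrine or amsacrine. MT-RNR1, the 12S rRNA of the small mitochondrial ribosomal subunit, rose to 15205 and 17489 CPM from 6154 to 8258 in DMSO (log2 change 1.22, SE 0.15, adjusted p = 3.46e-11), whereas MT-RNR2, the 16S rRNA, read 29201 and 32296 CPM against 37866 to 50617 and did not pass (-0.52, adjusted p = 0.0789). The tRNAs with the largest rises under the rule for named genes are shown because their sequences mark where the long transcript is cut, with the histidine tRNA, next to MT-ND4, added after its values were seen; positions are on the mitochondrial genome of GRCh38 in GENCODE release 29, sequences run 5′ to 3′ as DNA letters of the tRNA strand, and capitals mark the anticodon. MT-TM is the methionine tRNA, chrM:4402-4469 (+), which ends directly before MT-ND2 (start 4470). MT-TL1 is a leucine tRNA, chrM:3230-3304 (+), next to MT-RNR2. MT-TP is the proline tRNA on the other strand, chrM:15956-16023 (-), and MT-TH is the histidine tRNA, chrM:12138-12206 (+), which starts directly after MT-ND4 ends.
MT-TM: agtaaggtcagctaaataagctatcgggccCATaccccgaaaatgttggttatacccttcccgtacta
MT-TL1: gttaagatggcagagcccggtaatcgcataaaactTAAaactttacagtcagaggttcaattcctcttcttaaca
MT-TP: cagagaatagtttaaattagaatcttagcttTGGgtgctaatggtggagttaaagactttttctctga
MT-TH: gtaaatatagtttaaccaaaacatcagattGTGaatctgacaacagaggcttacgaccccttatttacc

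MT-TM read 28 and 50.5 CPM with proflavine and 0 to 1.46 CPM in DMSO, where 5 of the 8 wells were at 0 (log2 change 6.70, SE 0.66, adjusted p = 8.7e-15). Quinacrine wells held 0.364 and 1.66 CPM of MT-TM and amsacrine wells 0.363 and 0. Its neighbour MT-ND2 moved in the opposite direction in the same proflavine wells. MT-TL1 read 1109 and 431 CPM with proflavine against 40.7 to 87.1 in DMSO (3.87, SE 0.38). MT-TP read 43.7 and 42.6 CPM against 0 to 6.7 (4.34, SE 0.46), and MT-TH read 189 and 170 CPM against 13 to 50.8 (2.56, SE 0.31). The proflavine wells lay above all DMSO wells in these 4 genes, which were chosen for such a gap or after their values were seen. With homidium the same genes read 29.4 and 68.7 CPM (MT-TM), 3775 and 1920 (MT-TL1), 56.2 and 86.5 (MT-TP) and 1410 and 2661 (MT-TH), and MT-ND2 read 5379 and 6689 CPM. The glutamine tRNA MT-TQ had no count in either proflavine well; its DMSO mean of 3.74 CPM is at least 1.7-fold above a floor of 3 counts in each well. The library takes polyadenylated RNA, and counts per gene do not separate a cut tRNA from a longer RNA that still holds it.

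**Figure D2:**
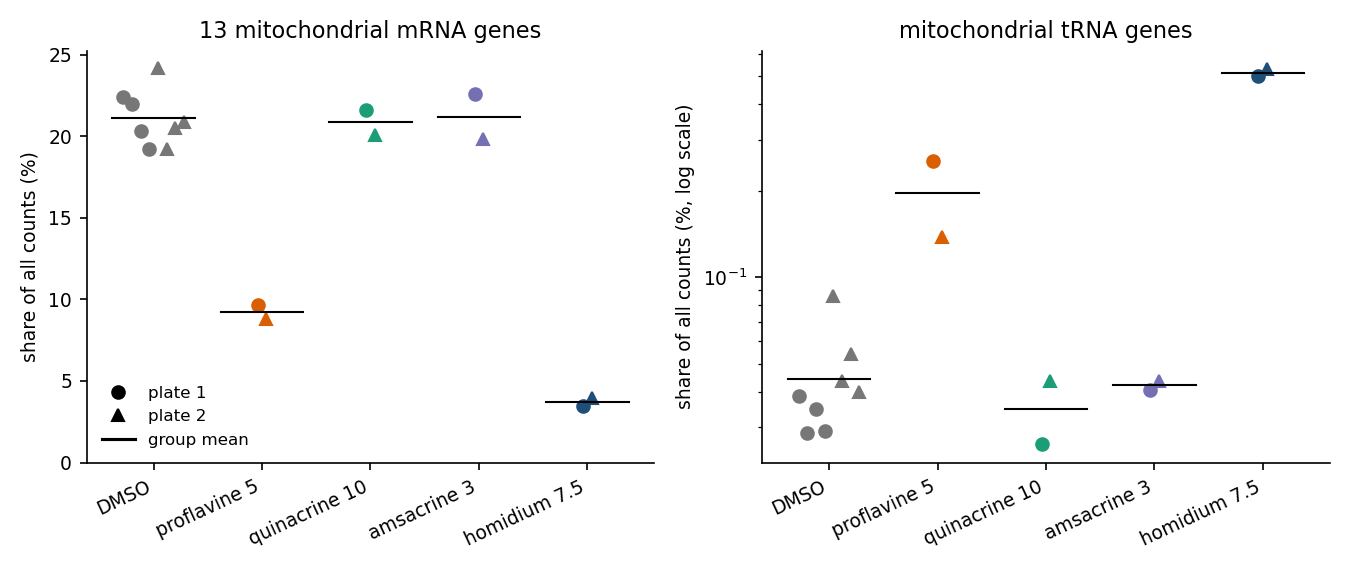
Share of all counts (%, y axis; the right panel has a log scale) from the 13 mitochondrial mRNA genes and from mitochondrial tRNA genes in each well of DMSO, the acridines and homidium; circles are plate 1, triangles plate 2 and lines group means. Proflavine lies at 8.81% to 9.65% mRNA, below all DMSO wells, and at 0.138% to 0.254% tRNA, above them.

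**Figure D3:**
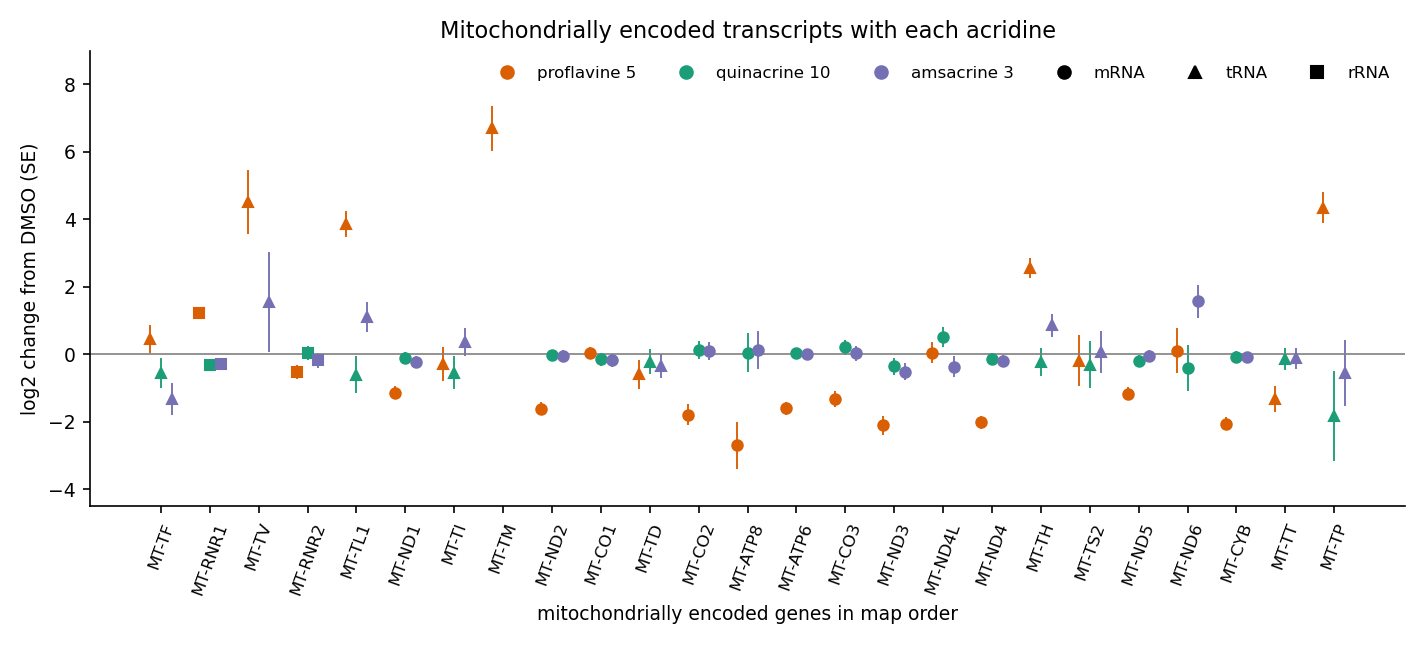
Log2 change from DMSO (y axis, bars are SE) of mitochondrially encoded genes in map order, for genes with a proflavine SE under 1; circles are mRNAs, triangles tRNAs and squares rRNAs. With proflavine most mRNAs lie below 0, MT-CO1 at 0.04, and several tRNAs lie above 3, whereas the mRNAs lie between -0.51 and 0.52 with quinacrine and amsacrine, apart from MT-ND6 at 1.57 with amsacrine, which did not pass.

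Nuclear genes of the same organelle were also measured. Of 22 tested respiratory chain genes encoded in the nucleus, 7 fell and none rose with proflavine (median -0.45), beside 9.22% of all genes called lower, among them UQCRC2 of complex III (-1.05) and CYCS, cytochrome c (-0.74). Without the plate block 2 genes of the list were called lower, and with DESeq2 size factors 3. Of 17 genes that copy, transcribe or process mitochondrial DNA, SLIRP (-1.18), which stabilizes mitochondrial mRNAs, SSBP1 (-0.64), a single-strand DNA binding protein, and FASTKD2 (-1.10), which acts in mitochondrial ribosome assembly, fell, and SUPV3L1, an RNA helicase, was called higher. SUPV3L1 rested on plate 2, with 18.1 and 104 CPM against a DMSO median of 18.2. With all of plate 2 left out its change was -0.01.

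The largest rises with proflavine under the rule for named genes included several nuclear genes. C2, a complement component, read 23.9 and 38.1 CPM against 0 to 1.72 in DMSO (log2 change 6.21, SE 0.65, adjusted p = 6.99e-14). DIO3, the deiodinase that inactivates thyroid hormone, read 65.9 and 105 CPM against 0 to 5.85 (5.39, SE 0.44). HLA-E, a class I gene with near-identical relatives that can share reads, read 43.7 and 63.8 CPM against 0 to 4.87 (4.80, SE 0.42). IRX3, a homeodomain factor (4.27), and ZNF844, a zinc finger gene (3.65), completed the nuclear genes among the 8 largest rises. The rule asks for a mean of at least 30 CPM, which these genes reached through the proflavine wells, and for treated wells beyond the DMSO wells of their plate, so their low DMSO levels and the gap between the groups come with the choice. Quinacrine read 2.91 and 9.15 CPM of HLA-E and amsacrine 5.08 and 1.24, and neither passed.

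Stress lists gave mixed calls with proflavine, to be read beside the 10.1% of all genes called higher and 9.22% called lower. The list named DNA damage response here is a list of p53 target genes. SESN2, a sestrin that restrains mTORC1 and is on both the ATF4 and the DNA damage response list, read 53 and 43.4 CPM against 1.83 to 10.8 in DMSO (2.90, SE 0.38), and ATF5, a factor of the integrated stress response, read 93.3 and 124 CPM against 5.3 to 20.7 (3.41, SE 0.34, adjusted p = 1.28e-14). Of 27 tested ATF4 response genes 5 rose and 3 fell (median -0.43); the falling ones included PHGDH, the first enzyme of serine synthesis, at 311 and 391 CPM against a DMSO median of 1059 (-1.51). In the DNA damage response list 3 of 19 rose and 1 fell (median 0.64): SESN2, GADD45B (2.76) and FAS (3.22) rose, while TP53I3, at 143 and 175 CPM against 248 to 505, fell by 1.14. FAS, a death receptor, was at 15.2 and 5.32 CPM. Of the 90 compounds, 16 had a higher SESN2 mean than proflavine, 9 a higher ATF5 mean and 8 a higher GADD45B mean. CDKN1A lay above all DMSO wells with proflavine but did not pass (1.11, SE 0.48, adjusted p = 0.0929); with DESeq2 size factors 7 of the 19 were called higher, CDKN1A among them. Immediate early genes gave 5 rises and 1 fall of 18, with ATF3 at 15.2 and 44.3 CPM against a DMSO median of 3.49 (2.72, SE 0.40) and JUND lower (-1.71). NF-kB targets gave 3 rises (RELB, TRAF1 and NFKB2) and 1 fall (NFKBIA, the inhibitor) of 9, at levels no higher than 22.2 CPM for the rising genes in any proflavine well.

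Both genes of the transcription machinery on the list of short-lived and transcription-block genes rose with proflavine. POLR2A, the largest subunit of RNA polymerase II, read 274 and 195 CPM with proflavine against 44.1 to 77.7 in DMSO (1.92, SE 0.19, adjusted p = 8.7e-15), and 2 of the 90 compounds had a higher mean. HEXIM1, which holds the elongation kinase P-TEFb inactive, read 30.9 and 23.9 CPM against 0.976 to 7.8 (2.59, SE 0.43). Levels of POLR2A were 60.1 and 58.2 CPM with quinacrine and 91.1 and 54.4 with amsacrine, neither called, and 185 and 225 with doxorubicin. That list as a whole was mixed, with 4 rises and 3 falls of 15 (median -0.04).

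Most tested genes of adrenergic neuroblastoma identity fell with proflavine. In the adrenergic list, which holds the transcription factors and catecholamine genes of sympathetic neuroblasts, 14 of 24 tested genes fell and 2 rose (median -1.20), against 9.22% of all genes called lower. STMN2, a neuronal microtubule protein, read 483 and 494 CPM against a DMSO median of 1556 (-1.70, SE 0.21), CHGA, the granule protein chromogranin A, 285 and 297 against 609 (-1.04), and HAND2, a core adrenergic factor, 65.9 and 28.4 against 148 (-1.64). TH, the rate-limiting enzyme of catecholamine synthesis, read 11.1 and 8.87 CPM against a median of 43.4 (-1.95). The rising members were SOX11 (0.53) and INSM1 (1.31), both neural transcription factors. MYCN itself read 196 and 33.7 CPM against 49.6 to 199 and did not pass (-0.24, SE 0.64). Of 21 genes of the mesenchymal state, the other state of neuroblastoma lines, 5 fell and 1, the receptor NOTCH2 (1.45), rose (median -0.68), with COL1A1 at 112 and 134 CPM against 446 to 595 (-2.11) and VIM, vimentin, at -1.05. The markers of other cell types summed to 129 to 159 CPM in the same wells, most of it COL1A1, and their part in these falls was not tested.

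The 8 largest falls with proflavine reached levels near 0. PDGFRB, a growth factor receptor, read 1.17 and 2.66 CPM against 22.9 to 71.9 in DMSO (-4.73, SE 0.87), and DKK1, a secreted WNT antagonist, 12.8 and 6.21 against a median of 120 (-4.23, SE 0.80). RPH3A (-4.13), which acts in synaptic vesicle release, RTN1, a neuronal reticulon (-3.45), STRA6, the retinol transporter (-3.69), MMP11, a matrix protease (-3.28), ISLR (-3.22) and the small nucleolar RNA SNORA40 (-3.94) made up the rest. By the rule that chose them, each proflavine well of these genes lies below every DMSO well of its plate.

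Several growth and biosynthesis lists held more falls than rises with proflavine and others were mixed, beside 9.22% of all genes called lower and 10.1% called higher. Of 24 ribosomal protein genes 12 fell and none rose (median -0.67), for example RPS3 at 1933 and 1265 CPM against a DMSO median of 3419 (-1.11, SE 0.21); 9 fell with DESeq2 size factors and 5 without the plate block. Among 20 MYC partners and targets 6 fell and none rose (median -0.49), with NPM1, a nucleolar chaperone, at 29.1 and 49.7 CPM against 153 to 290 in DMSO (-2.39) and NME1 at -1.65. Ribosome biogenesis genes split into 4 rises, NOP2 (1.11) and RRP12 (1.46) among them, and 4 falls of 25. In the cholesterol list 10 of 22 fell and 1 rose (median -0.94): FDFT1, squalene synthase, read 19.8 and 19.5 CPM against a median of 83.6 (-2.15, SE 0.31), DHCR7, the last step to cholesterol, 12.2 and 11.5 against 63.9 (-2.41), while TM7SF2, a sterol reductase, rose (1.92). MVK, mevalonate kinase, had no count in either proflavine well. With DESeq2 size factors 6 cholesterol genes were called lower. HSPA8 (-1.33), HSPE1 (-1.22) and HSP90AB1 (-0.86) were among 5 chaperone genes of 16 that fell, and HSPA4 (0.46), DNAJA1 (1.00) and BAG3 (1.48) were called higher, but no gene of that list was with the spike-in wells as a second block. Lysosome and autophagy genes gave 5 rises and 1 fall of 27 (median 0.46), with MAP1LC3B, an autophagosome marker, at 76.4 and 47 CPM against 17.1 (1.64) and ATP6V0D1, a proton pump subunit, at 49 and 68.3 against 21.2 (1.50).

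Some mitotic genes fell with proflavine and some with amsacrine, each against DMSO. Of 25 G2 and mitosis genes, 9 fell and none rose with proflavine (median -0.68, against -0.04 for all genes and 9.22% of all genes called lower) and 4 fell and 1 rose with amsacrine (median -0.70, against -0.01 for all genes and 0.811% of all genes called lower). With proflavine CCNA2, cyclin A2, read 31.5 and 31.9 CPM against 76.7 to 108 in DMSO (-1.42, SE 0.26), PTTG1, securin, 589 and 754 against a median of 1405 (-1.10) and CCNB1 changed by -1.20 (SE 0.23, adjusted p = 3.59e-05). Without the plate block 3 of these 9 passed. With amsacrine PLK1, a kinase that drives mitotic entry, read 268 and 82.8 CPM; its DMSO wells read 585 to 737 on plate 1 and 1074 to 1529 on plate 2 (-2.08, SE 0.26, adjusted p = 9.8e-09). A single compound of the 90 had a lower PLK1 mean than amsacrine, and 20 had a lower CCNB1 mean. CDC20, an activator of the anaphase-promoting complex (65.7 and 81.5 CPM, -1.25), CCNB1 (-0.89, SE 0.22, adjusted p = 0.00988) and PTTG1 (-0.76) also fell with amsacrine, and CCNB1 did not pass with the spike-in wells as a second block (adjusted p = 0.0768) or without the plate block. CKS2 was called higher but rested on plate 2, with 12.3 and 246 CPM against a DMSO median of 22.8.

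The promoters of 3 of these cyclin and kinase genes are shown because mitotic genes are known to be repressed together through 2 short elements, the CCAAT box, bound by NF-Y, and the CHR. Each line is the 120 bases before the start in the RefSeq promoter table for GRCh38.p14, read on the gene's strand at chr5:69167030-69167149 (+, CCNB1), chr16:23678769-23678888 (+, PLK1) and chr4:121823884-121824003 (-, CCNA2); capitals mark matches to CCAAT or its reverse complement ATTGG, and to the CHR letters TTTGAA or TTCGAA or their reverse complements.
CCNB1: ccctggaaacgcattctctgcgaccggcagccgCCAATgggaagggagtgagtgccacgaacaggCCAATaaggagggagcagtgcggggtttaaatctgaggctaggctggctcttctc
PLK1: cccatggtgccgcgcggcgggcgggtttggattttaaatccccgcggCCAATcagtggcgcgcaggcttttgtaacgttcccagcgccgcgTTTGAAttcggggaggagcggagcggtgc
CCNA2: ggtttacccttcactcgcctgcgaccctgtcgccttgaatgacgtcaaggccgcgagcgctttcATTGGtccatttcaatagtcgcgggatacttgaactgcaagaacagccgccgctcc

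CCNB1 holds 2 CCAAT letters and PLK1 and CCNA2 hold 1 each in this window. Within 250 bases before the start, CCAAT on either strand was present for 20 of the 22 G2 and mitosis genes with a promoter in the table (90.9%), against 37% of all 27305 genes in it and 42.1% of the tested genes. The CHR letters were present for 13 of the 22 (59.1%), against 17.2% of all and 13.4% of the tested genes. All 4 mitotic genes that fell with amsacrine and 8 of the 9 that fell with proflavine held CCAAT, and 2 of the 4 and 4 of the 9 held the CHR letters. The list was chosen for its function and these letters are common, so a match describes the window and is not a site. Only the CHR letters given above were searched, so a window without them is not shown to lack the element.

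Amsacrine gave few changes, among them stress and checkpoint genes. CDKN1A rose by 2.21 (SE 0.36, adjusted p = 1.77e-05), a level 4.64-fold higher, and it passed under every alternative that kept both plates. SESN2 read 30.1 and 32.1 CPM against 1.83 to 10.8 in DMSO (2.26, SE 0.38), and GADD45B, a damage-induced adaptor, 12.7 and 11.1 against a median of 2.76 (1.68, SE 0.43). These 3 were the called members of the DNA damage response list, which holds 19 tested p53 target genes. The median was 0.43, beside 1.18% of all genes called higher. GADD45B did not pass without the plate block or with the spike-in wells as a second block. Of the 90 compounds, 13 had a higher CDKN1A mean than amsacrine, 28 a higher SESN2 mean and 18 a higher GADD45B mean. The list members MDM2 (0.26), BBC3 (0.79), PMAIP1 (0.43) and TP53I3 (-0.14) did not pass. ATF4 response genes gave 5 rises and no fall of 27 (median 0.18), to be read beside the same 1.18%: ATF5 at 29.8 and 55.6 CPM against 5.3 to 20.7 (2.01, SE 0.38), DDIT4, an mTORC1 inhibitor, at 151 and 38.3 against a median of 32.3 (1.67), SESN2, DDIT3 (1.36) and ATF3 (1.69). The plate 2 well of DDIT4 lay inside the range of all DMSO wells, 12 to 47.1 CPM, which spans both plates. For ATF5, DDIT4 and ATF3, 16, 21 and 23 of the 90 compounds had a higher mean than amsacrine. CDKN1C, the p57 inhibitor, rose as well (1.57), although not with the spike-in wells as a second block (adjusted p = 0.0621).

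Some NF-kB targets rose with amsacrine. Of the 15 listed genes 9 were tested, of which 4 passed, all higher, against 1.18% of all genes called higher, and 5 did not pass. The median of the 9 was 1.21. CCL2, a chemokine, read 18.5 and 14.2 CPM against 0.573 to 2.93 in DMSO (3.30, SE 0.50, adjusted p = 1.27e-06), and it passed under every alternative that kept both plates. NFKB2, a subunit of the factor and its own target, read 10.9 and 39.5 CPM against a median of 2.6 (2.57, SE 0.42), RELB 12 and 2.47 against 0.203 (4.50, SE 0.85), and TRAF1, an adaptor of TNF receptors, passed at 2.69 (adjusted p = 0.0484). TRAF1 read 5.08 and 5.56 CPM against 0 to 1.77, and levels of all 4 genes were low. Without the plate block 3 of the 4 passed, and with the spike-in wells as a second block 3.

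STMN4, a neuronal stathmin, was the most clearly raised of the other genes, with 147 and 293 CPM against 32.2 to 79.1 in DMSO (2.04, SE 0.21, adjusted p = 1.56e-12); it read 42.2 and 61.6 CPM with quinacrine and 10.5 and 23.9 with proflavine. NLRX1, a mitochondrial NOD-like receptor (1.79), and ASPDH (1.65) completed the 8 largest rises. The genes of topoisomerase II, the target of amsacrine, did not pass. TOP2A read 511 and 503 CPM against a median of 814 (-0.65, SE 0.26, adjusted p = 0.182) and TOP2B 10.9 and 5.56 against 15.4 (-0.71, SE 0.52). TOP1, which encodes topoisomerase I, did not pass either, with 358 and 324 CPM against 643 (-0.96, SE 0.38). The list counts that follow are to be read beside 0.811% of all genes called lower and 1.18% called higher with amsacrine. The median of all genes was -0.01. Of 21 topoisomerase and repair genes XRCC5, the Ku80 subunit of end joining, was the single call (-0.83, adjusted p = 0.0335). Cholesterol genes gave 3 falls and no rise of 22 (median -0.42), with MSMO1, a sterol oxidase, at 39.9 and 8.65 CPM against a median of 73.5 (-1.45) and SQLE at 60.6 and 57.4 against 134 (-1.12) among the falls; SQLE did not pass with the spike-in wells as a second block. In the adrenergic list 4 fell and 1 rose of 24 (median -0.68), with SOX11 at 112 and 110 CPM against a median of 187 (-0.75), KLF7 at -1.34 and TFAP2B at -0.97, and with the spike-in wells as a second block 1 fall was left. No mitochondrial mRNA passed with amsacrine (median -0.05).

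**Figure D4:**
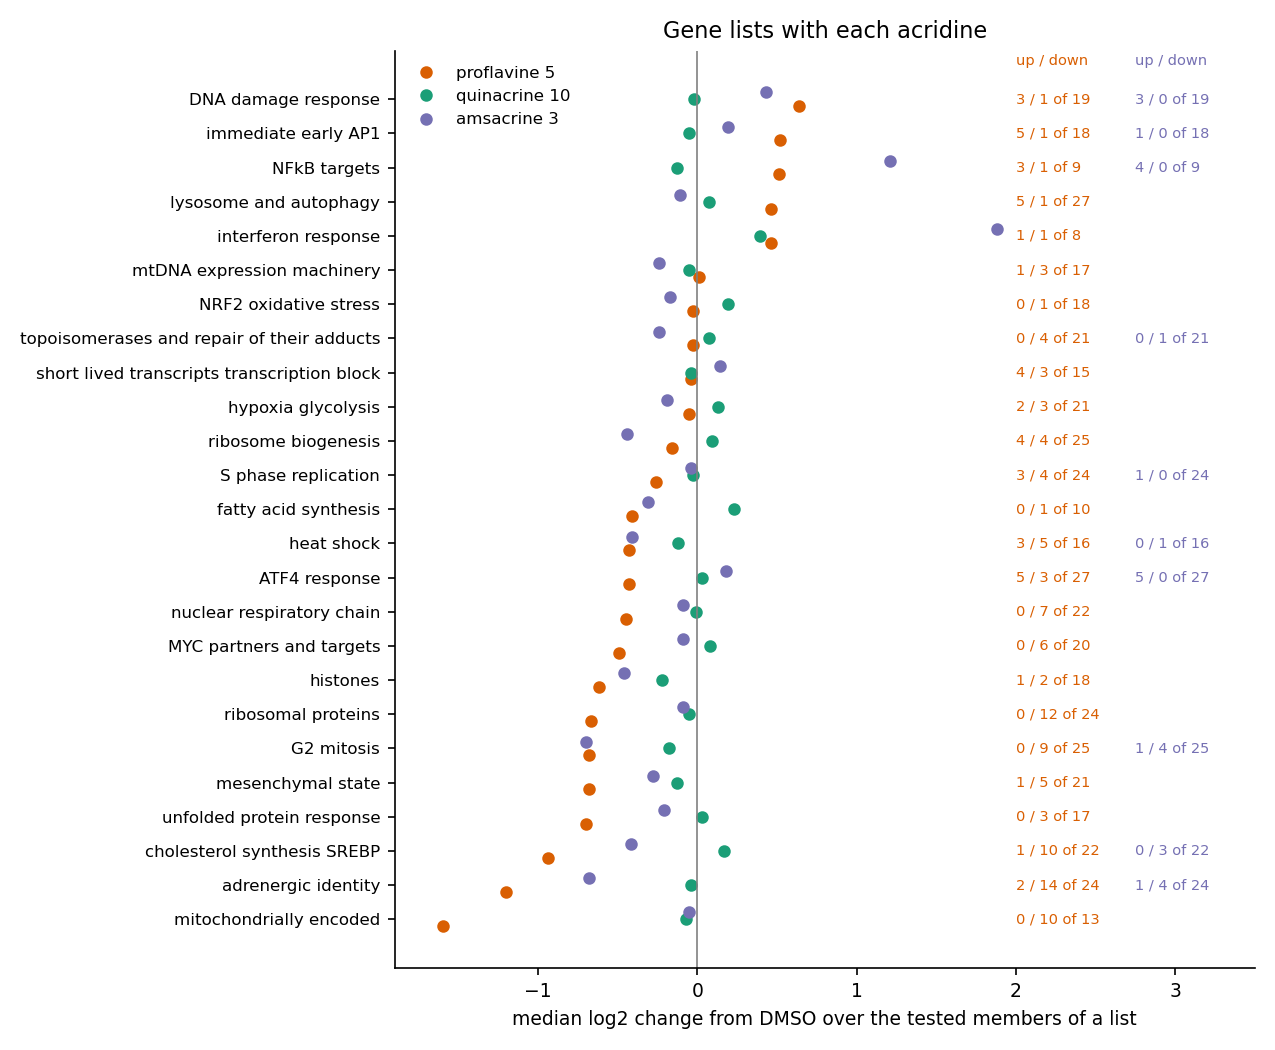
Median log2 change from DMSO (x axis) over the tested members of each gene list apart from the 3 marker lists, 1 point per acridine; the numbers at the right give members called higher / lower of those tested, for proflavine and for amsacrine (blank where none was called). The quinacrine points lie between -0.22 and 0.39, the mitochondrial mRNAs at -1.60 are the lowest list with proflavine, and the interferon genes at 1.88 with amsacrine hold no call. The list labelled DNA damage response holds p53 target genes.

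Several of the largest falls with amsacrine were long genes. The relation to gene length was examined after earlier results of these data were known. RBMS3, an RNA-binding protein gene (-2.15, SE 0.38), read 5.45 and 16.7 CPM against 33.7 to 56.6, and ROBO1, an axon guidance receptor (-1.97, SE 0.36), 6.9 and 8.65 against 21.1 to 44.6. CTNNA2, a neuronal catenin, read 9.08 and 11.7 CPM against 23.4 to 59.2 (-1.63), and PLXNA4, a semaphorin receptor, 11.3 and 19.8 against a median of 43.7 (-1.60). FMNL2 (-1.91, adjusted p = 0.0488) and ADAMTS19 (-1.80, adjusted p = 0.0365) did not pass with the spike-in wells as a second block, nor did PLXNA4. On GRCh38 RBMS3 spans chr3:28574791-30010391, ROBO1 chr3:78597240-79767815 and CTNNA2 chr2:79185231-80648861, introns included. PAK1IP1, a shorter gene of ribosome assembly at chr6:10694695-10709782, was also among the 8 largest falls (-1.79).

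Spans were found for 11972 of the 13438 genes (89.1%), 11414 of them protein-coding. Of the 904 protein-coding genes over 200 kb, 41 fell and 3 rose with amsacrine (4.54% and 0.332%, median -0.31). Of the 2084 genes up to 10 kb, 12 fell and 43 rose (0.576% and 2.06%, median 0.05). The median span was 105 kb for genes that fell, 19.2 kb for genes that rose and 33.8 kb for all. In each well the median difference of the longest genes minus that of the shortest was -0.27 and -0.32 with amsacrine (log2, from the DMSO wells of the plate), below all 8 DMSO wells at -0.14 to 0.16. It was -0.07 and 0.17 with quinacrine and -0.09 and 0.06 with proflavine, with 10 of the 90 compounds lower than amsacrine. The exact two-sided permutation test of the same quantity, taken from the plate mean, gave p = 0.0889 for amsacrine, where the smallest possible is 0.0444. Its splits were also drawn without regard to the plate. With the spike-in wells as a second block 23 of the longest genes fell and none rose, without the plate block 10 fell and 1 rose, and with DESeq2 size factors 28 fell and 7 rose. Without plate 1 the longest genes had a median of -0.42, and without plate 2 a median of -0.31. Each of these fits leaves 1 amsacrine well and 4 DMSO wells, so genes passing are not counted. With proflavine 91 of the longest genes fell and 60 rose, and with quinacrine none fell and 2 rose, which are its 2 calls.

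**Figure D5:**
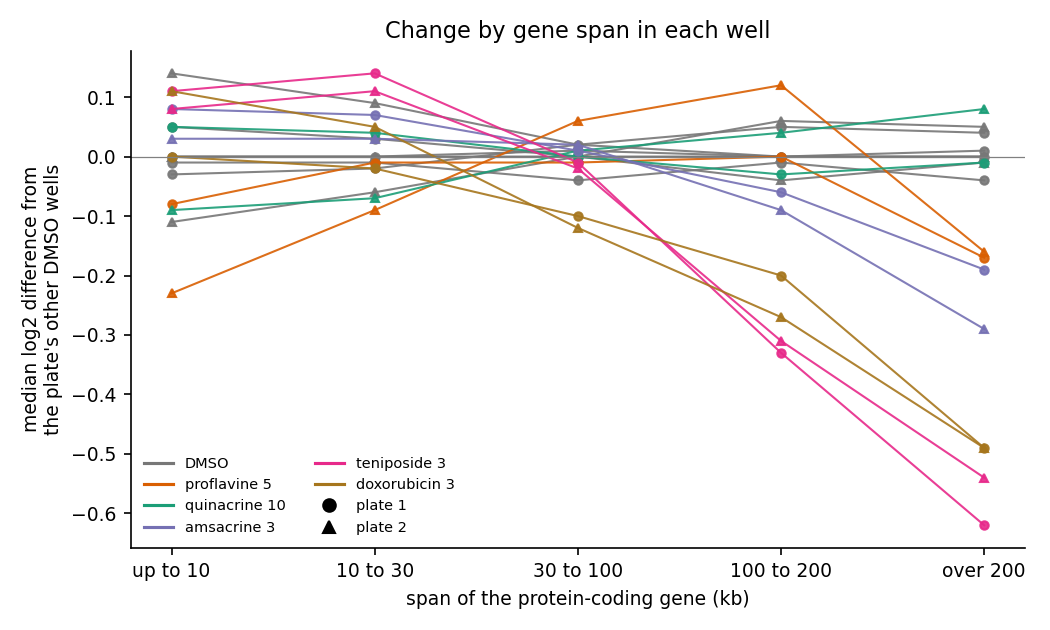
Median log2 difference from the plate's other DMSO wells (y axis) of protein-coding genes by genomic span in kb (x axis), 1 line per well; circles are plate 1 and triangles plate 2. The amsacrine lines end at -0.19 and -0.29 in genes over 200 kb, the teniposide and doxorubicin lines at -0.49 to -0.62, and the DMSO, proflavine and quinacrine lines at -0.17 to 0.08.

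Quinacrine at its labelled dose left the transcriptome close to DMSO. Of 3715 genes with a DMSO mean of at least 30 CPM, none was called, and for 3093 (83.3%) the 95% interval of the change lay inside a 2-fold change in either direction; the share was 68.2% with amsacrine and 40.1% with proflavine. Both calls were low or uneven between wells. SDCCAG8, a centrosome protein, read 23.3 and 101 CPM against 8.52 to 19.1 in DMSO (1.88, SE 0.34, adjusted p = 0.0012), and it did not pass with plate 2 left out. MAML3, a Notch coactivator whose name falls outside the rule and was added after its values were seen, read 83 and 0.832 CPM against 1.22 to 8.83 (3.28, SE 0.42), so its call rests on plate 1 alone.

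No gene of any of the 28 lists passed with quinacrine, including its own marker processes. For MT-ND2 the change was -0.02 (95% interval -0.34 to 0.31), for CCNB1 -0.48 (SE 0.21, adjusted p = 0.996) and for CDKN1A -0.29 (SE 0.56). Both quinacrine wells lay below the 4 DMSO wells of their plate in CCNB1, on plate 1 by less than the rounding (130 CPM in both) and on plate 2 at 54.9 CPM against 81.4 to 114. Lysosome and autophagy genes had a median of 0.07 over 27 genes, 15 above 0; MAP1LC3B (0.44), SQSTM1 (0.11) and LAMP1 (0.07), common readouts of lysosomal load, did not pass. Cholesterol genes had a median of 0.17 over 22 genes. ATF5 read 17.5 and 38.3 CPM with quinacrine against 5.3 to 20.7 in DMSO, and MYCN 265 CPM as the mean of its 2 wells, each above the DMSO wells of its plate (1.03, SE 0.56; DMSO range 49.6 to 199), and neither passed.

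Amsacrine and teniposide, topoisomerase II poisons with and without an acridine ring, differed in 39 genes that were higher with amsacrine (0.29%) and 18 that were lower (0.134%), 0.424% of 13438 in either direction, with p-values adjusted over all genes of the 3 pairs. Without the plate block 10 genes passed and with the spike-in wells as a second block 27. No marker passed: amsacrine minus teniposide was -0.38 for CDKN1A (95% interval -1.22 to 0.46; teniposide wells 34.1 and 65.2 CPM), 0.33 for CCNB1 (-0.23 to 0.89) and 0.23 for MT-ND2. The CDKN1A interval includes more than a 2-fold difference, so the compounds were not shown to act alike. BCL2, the survival gene, was the largest rise under the rule for named genes (3.66, SE 0.70) and rested on plate 2, with 11.6 and 156 CPM against 1.76 and 10.6. PRSS12, a neuronal protease, read 32.3 and 32.7 CPM against 8.82 or less with teniposide (2.20), and PPP2R5E (2.06) and AGPS (1.97) were also higher with amsacrine. ZBTB48 (-2.29), UBALD2 (-1.98), SMTN (-1.74) and YPEL5 (-1.53) were lower; these 4 did not pass without the plate block. Of the list members STMN2 was called higher (1.16, SE 0.24, adjusted p = 0.00122) and FAS lower, at 0.363 and 0 CPM with amsacrine and 14.1 and 3.53 CPM with teniposide.

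Gene length was read in this pair as well. Of the 904 longest genes 17 were higher with amsacrine than with teniposide and none lower (median 0.44), and of the 2084 shortest 1 was higher and 7 lower (median -0.05). The teniposide wells themselves stood at -0.72 and -0.62 in the longest-minus-shortest difference, beside -0.27 and -0.32 with amsacrine. Without the plate block 2 of the longest genes were called higher, with the spike-in wells as a second block 8, and with either plate alone none, with medians of 0.39 to 0.52.

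Amsacrine and doxorubicin, both intercalators that poison topoisomerase II, differed in 254 genes higher with amsacrine (1.89%) and 288 lower (2.14%), 4.03% in either direction. Scaling by DESeq2 size factors gave 163 higher and 388 lower, and without the plate block 129 genes passed in all. CDKN1A did not pass (0.18, 95% interval -0.69 to 1.04; doxorubicin wells 13.8 and 55 CPM), nor did CCNB1 (0.53) or MT-ND2 (0.02). CHRM1, a muscarinic receptor gene, read 29.4 and 37.1 CPM with amsacrine, near its DMSO range of 15.3 to 36, and had no count in either doxorubicin well, which makes it at least 16.1-fold higher with amsacrine against a floor of 3 counts a well. APOBEC3C, a cytidine deaminase (3.39), and PDGFRB (3.02) were also higher with amsacrine; PDGFRB read 51.2 and 44.5 CPM with amsacrine, 10.9 and 1.29 with doxorubicin and 1.17 and 2.66 with proflavine. BCL2 again rested on plate 2 (4.48). Lower with amsacrine were CCDC189 (-4.66, SE 0.53), HLA-E (-4.26, SE 0.53), WAS (-4.23) and TMEM38A (-3.81). HLA-E read 61.2 and 86.8 CPM with doxorubicin against 5.08 and 1.24 with amsacrine. POLR2A (-1.53) and HEXIM1 (-2.63) were lower with amsacrine than with doxorubicin, as were CCL2 (-1.64) and GADD45B (-1.61); these list members were picked after their values were seen. The longest genes were higher with amsacrine in 16 cases and lower in 4 (median 0.28, against 0.06 for all genes). With DESeq2 size factors 9 were higher and 5 lower, without the plate block 5 and 1, without replicate 1 a single gene was higher and without replicate 2 none.

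Quinacrine and prochlorperazine, both basic amphiphilic tricyclic drugs, differed in 11 genes higher with quinacrine (0.0819%) and 9 lower (0.067%), 0.149% in either direction; 3 genes passed without the plate block. MT-RNR1 was the difference that passed under every alternative, at 5420 and 5990 CPM with quinacrine and 18880 and 28688 with prochlorperazine, whose wells lay above the DMSO range of 6154 to 8258 (-2.04, SE 0.21, adjusted p = 8.68e-13). Quinacrine itself lay just below that range. FER, a tyrosine kinase gene (1.89), RANGAP1, of nuclear transport (1.47), MEIS2, a homeodomain factor (1.43), and SDCCAG8 (1.64) were higher with quinacrine, and FTSJ1, a tRNA methyltransferase, was lower (-1.65). PPP1R2 (-5.03) and NUDCD2 (-2.10) were also called lower, each resting on a single prochlorperazine well, of 471 and 65.2 CPM. Cholesterol genes had no call among 22, with 2 estimates above 0 and a median of -0.53 against 0.02 for all genes; HMGCS1 was at -1.29 and IDI1 at -0.79. The markers did not pass, with MT-ND2 at -0.04, CDKN1A at -0.38 and CCNB1 at -0.37, nor did any of 27 lysosome and autophagy genes (median -0.05).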

How the data were processed

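The authors deposited a table of raw counts per gene for the first PLATE-seq experiment, aligned with STAR to GRCh38 per the submitters' processing notes; the versions, the counting rule and the use of strand are not given in the sources used here. Columns were matched to samples by compound, dose and replicate in the labels, and 0 columns of that table were left without a sample. The replicate R1 or R2 is the plate.

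The members and the gene lists were chosen with earlier results of these data known. Of 44267 genes, after 92 spike-in sequences were removed, 13438 passed edgeR's filter (minimum count 10). All libraries of that experiment entered one fit with edgeR 4.0.16 in R 4.3.3 (TMM scaling, quasi-likelihood test, group and plate as terms), and p-values were adjusted by Benjamini-Hochberg over all genes of each acridine, and over all genes of the 3 pairs together, at a threshold of 0.05. CPM uses the TMM-scaled library. The script was tested on simulated data with known changes.

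Named genes were the 8 largest rises and falls of each acridine (4 for each pair) among called genes with a mean of at least 30 CPM and every treated well beyond the DMSO wells of its plate, the 3 smallest p-values of each list with 3 or more calls, the mitochondrial mRNAs, the markers, MYCN and the topoisomerases. Other list members, other mitochondrial tRNAs and rRNAs, homidium, MAML3, DBH, FAS, MVK, the promoter letters and the gene spans were added after values were seen. Spans and mitochondrial positions came from GENCODE 29. The single values of a few list members are not reported here; the counts and medians of the lists include them.

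Deviations of R1 and R2 wells from their group means correlated by plate in 21 of 21 pairs of groups (0.185 to 0.47, median 0.316), and the protocol names duplicate plates, so the plate was kept as a block; no 2 libraries were identical. Total counts of these wells ran from 38670 to 3958909 (median 1790617), and for genes with a DMSO mean of at least 30 CPM the median SE of a log2 change was 0.276 to 0.298 against DMSO and 0.351 to 0.366 between compounds. Alternatives covered the block, the scaling, the filter, the older quasi-likelihood method, DESeq2 1.42.0, fewer libraries and 12 control wells. Each plate and each DMSO well was also left out in turn. The spike-in wells as a second block were added after the data were seen.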

Additional observations from a re-analysis of the deposited data

Results flagged for a closer look

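Among 141 measures in the 8 DMSO wells, 13 had a well farther from its nearest neighbour than Dixon's 95% critical share of the range, where chance alone flags about 1 in 20. No DMSO well held more than 3 of them. In the mitochondria, DMSO replicate 5 had a tRNA share of 0.0863% (next 0.0539%) and an MT-ND2 level of 57887 CPM (next 45248), and replicate 4 had MT-TM at 1.46 CPM; the proflavine wells lie beyond all DMSO wells in all 3. DMSO replicate 1 was highest for DKK1 at 560 CPM, RTN1 at 56.5 and DHCR7 at 87, and replicate 4 for CCNA2 at 108 and CDKN1C at 25.4. RELB reached 1.22 CPM in replicate 7, NFKB2 9.17 and TOP1 1134 CPM in replicate 8. FMNL2 reached 186 CPM in replicate 7 (next 59.7) and ADAMTS19 58.3 CPM in replicate 6, and both enter the falls with amsacrine.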

How the results depend on the processing

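Without the replicate block (the plate) the called genes went from 2598 to 1574 with proflavine, 268 to 41 with amsacrine, 57 to 10 for amsacrine with teniposide, 542 to 129 for amsacrine with doxorubicin and 20 to 3 for quinacrine with prochlorperazine; of the named genes, called or fixed, 80 of 95 with proflavine and 31 of 45 with amsacrine kept direction and side of the threshold. The older quasi-likelihood method gave 114 with amsacrine, 34, 289 and 5 for the 3 pairs in that order, and the compared libraries alone gave 28 for amsacrine with teniposide and 10 for quinacrine with prochlorperazine. Without the low-count filter quinacrine had 19 calls and its pair 43. With the spike-in wells as a second block amsacrine had 123 calls and its pair with teniposide 27. Leaving out 1 well at a time gave 771 to 2565 calls with proflavine, 1 to 9 with quinacrine, 17 to 273 with amsacrine, and 0 to 15, 12 to 76 and 3 to 9 for the 3 pairs; with a treated well left out the lone well is assumed to vary like the other groups. With all of plate 2 left out SUPV3L1 and PCNA with proflavine and CKS2 with amsacrine changed sign, so their calls rest on plate 2. Leaving out each plate or DMSO well in turn gave log2 changes of -0.01 to 2.69, -0.38 to 2.02 and -0.74 to 3.27 in that order. Apart from these the cause was not tested. The DESeq2 test put the share of higher calls with amsacrine at 40% (112 higher, 168 lower), and the older method put it at 71.3% for amsacrine with doxorubicin and 88.2% with teniposide. Across every alternative run, 49 of 87 called named genes with proflavine and 3 of 28 with amsacrine (CDKN1A, STMN4 and CCL2) kept their call. Scaling by spike-ins was not run, because 8 of the 20 wells compared held spike-in RNA and the others at most 29 counts of it. At this depth genes under about 30 CPM give wide intervals, and a call that misses the threshold does not show that a level stayed the same.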

Other observations

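Other gene lists held few or mixed calls. The proflavine counts are to be read beside 9.22% of all genes called lower and 10.1% called higher, and several lie near those shares. With proflavine 3 of 17 unfolded protein response genes fell and none rose (median -0.70), namely the chaperones HSPA5 (-1.06), CALR (-1.35) and PDIA6 (-0.70). Of 24 S phase genes 4 fell, among them the ribonucleotide reductase subunits RRM2 (-1.67) and RRM1 (-0.77), and 3 were called higher, CCNE1 (2.01), MCM5 (0.58) and PCNA (1.20). Of 21 topoisomerase and repair genes 4 fell with proflavine, XRCC5 (-1.28), NBN (-1.67), MRE11A (-0.95) and CHEK2 (-2.82). Of 18 histone genes 2 fell, H2AFX (-1.54) and H2AFZ (-0.70), and H3F3B rose (0.73). Of 21 hypoxia and glycolysis genes NDRG1 (2.39) and KDM3A (1.57) rose and ENO1 (-1.65), GAPDH (-0.71) and ANKRD37 (-2.21) fell.

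Interferon genes had a median of 1.88 with amsacrine over 8 tested members with no call. With proflavine IRF1 rose (3.25) and OAS1, at 0 in both wells, was called lower.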
